A study of Mus musculus with 16 samples.

Results

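The adipocyte lipid storage and lipolysis genes are 10 genes whose products bring fatty acids into fat cells, keep them there as triglyceride and release them again. They are Lpl, Fabp4, Pnpla2, Lipe, Adrb3, Plin1, Plin4, Cidec, Cidea and Pparg, and they were followed in wounds of diabetic db/db mice with and without topical estrogen. They are a fixed list of names, drawn up when earlier results of these data were known, and every probe of the array that a RefSeq accession tied to one of them was kept, which gave 13 of 39429 probes and 10 of 20832 named genes. Lpl, Cidec and Adrb3 had 2 probes each and the others 1. A gene is described here by its brightest probe unless another is named, and that probe was well above background on all 16 arrays for each of the 10 genes.

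Fat cells store energy as triglyceride in a lipid droplet. Lipoprotein lipase, which Lpl encodes, frees fatty acids from circulating lipoproteins, Fabp4 carries them inside the cell, and perilipins and CIDE proteins coat and enlarge the droplet. Catecholamines acting on the beta-3 adrenergic receptor (Adrb3) set off lipolysis, in which adipose triglyceride lipase (Pnpla2) and hormone-sensitive lipase (Lipe) split the stored fat in turn. PPARγ (Pparg) is the nuclear receptor that drives fat cell formation and many of these genes. Skin has its own layer of dermal fat below the hair follicles, and its sebaceous glands also make and store lipid.

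RNA came from full-thickness wounds on the back of female mice, taken with the skin around them. The WT group was C57BL/6J, from 10 to 12 weeks old. The db/db groups were C57BLKS/J Iar-+Lepr db/+Lepr db, homozygous for a leptin receptor mutation, and 10 weeks old. Genotype and strain therefore cannot be told apart. The db/db group was wounded only. Wounds of the db/db + estrogen group were treated with estradiol benzoate dissolved in sesame oil, and those of the db/db + vehicle group with sesame oil. Each of these 4 groups had 2 arrays labelled day 7 after wounding and 2 labelled day 14, and the design text calls them biological replicates. With whole tissue, fewer fat cells and less RNA per fat cell cannot be told apart.

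The labelled days need a caution before any value is given. In a check of the labels, 20 db/db vs WT fold changes printed for each day were set beside the arrays, and those printed for day 7 lay within 1% of the arrays labelled day 14 in 20 of 20 cases and of the arrays labelled day 7 in 0 of 20. Those printed for day 14 lay within 1% of the arrays labelled day 7 in 20 of 20 cases and of the arrays labelled day 14 in 0 of 20. In tissue sections, the study's ratio of new blood vessels was lower in db/db than in WT on its earlier day and higher later. On the arrays, 0 of 6 endothelial markers were above WT in db/db by their means on labelled day 7 (median log2 difference −0.38). On labelled day 14, 5 of 6 were above WT (median 0.40), and none passed the thresholds given below on either labelled day. By label, these medians thus ran in the order of the vessels. Which of the 2, labels or printed days, is exchanged was not tested, so each array goes by its label, as labelled day 7 or labelled day 14. All arrays of 1 labelled day were also scanned on 1 day, so labelled day and scan day cannot be told apart. On labelled day 7, slide 1 held replicate 1 of all 4 groups and slide 2 held replicate 2. On labelled day 14, slide 3 held both db/db arrays and slide 4 both WT arrays, with replicate 1 of the estrogen and vehicle groups on slide 3 and replicate 2 on slide 4.

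A level below is the log2 of a probe's background-subtracted signal minus the log2 of the 75th percentile of its array, so that 0 is a signal as bright as that percentile. Levels of different genes come from different probes and are not set against each other. The share of probes well above background was 70.1% to 79.0% per array, and the signal at the 75th percentile was 1091 to 2548. A difference was called where limma, fitted to the 8 groups with 8 residual degrees of freedom, gave a two-sided p below 0.05 before adjustment and the fold change was over 2, which are the study's thresholds. Every adjusted p below is from limma with Benjamini-Hochberg adjustment over all probes tested in that comparison. The smallest p of an exact permutation test of 2 arrays against 2 is 0.333, and the calls therefore use the spread that limma pools over groups and genes.

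The replicates of a group differed on these genes, in 4 of the 8 groups in 1 direction for all 10. In the db/db + vehicle group of labelled day 14, replicate 2 was higher than replicate 1 for 10 of 10 genes, by 1.24 on the log2 scale on average and by 2.62 at most. The same held for 10 of 10 genes in the db/db group of labelled day 7, by 0.85 on average, and in the db/db + estrogen group of labelled day 7, by 0.64. In the db/db group of labelled day 14, replicate 2 was lower for 10 of 10 genes, by 0.64 on average. Elsewhere replicate 2 was higher for some genes and lower for others, with average differences of −0.15 and −0.38 in WT on labelled days 7 and 14, 0.30 with vehicle on labelled day 7 and 0.15 with estrogen on labelled day 14. The part of slide and of the tissue sampled in these differences was not tested.

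**Figure D1:**
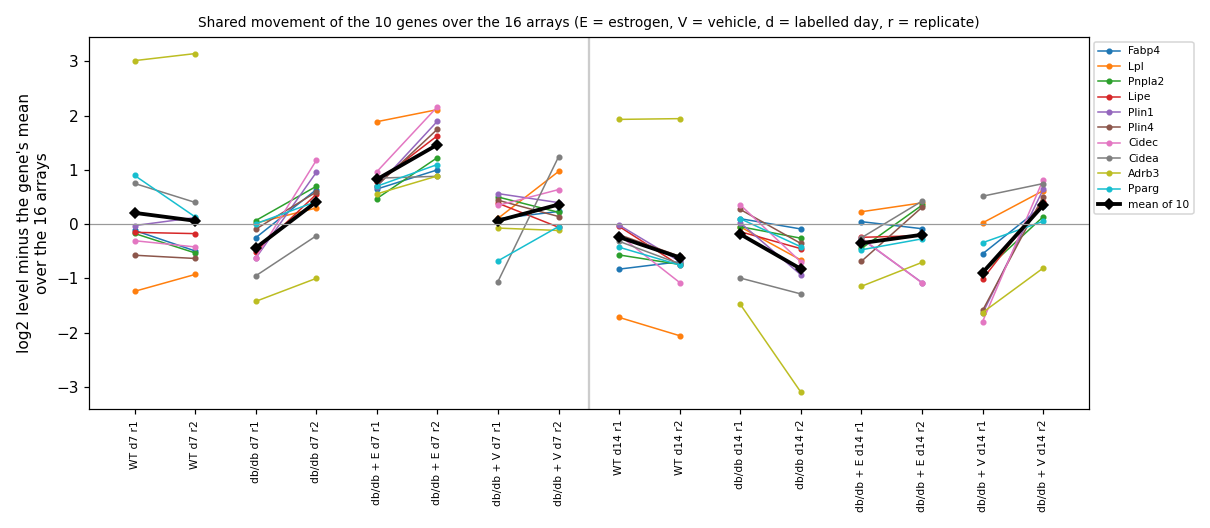
Log2 level of each of the 10 genes minus its own mean over the 16 arrays (y axis), by group, labelled day and replicate (x axis), with a line joining the 2 replicates of a group and the mean of the 10 genes in black. The mean runs from −0.89 on replicate 1 of db/db + vehicle, labelled day 14, to 1.47 on replicate 2 of db/db + estrogen, labelled day 7, and the Adrb3 line stands apart, highest in WT.

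Over the 16 arrays, Lipe, Plin1 and Cidec followed the rest most closely, with a Pearson r between each gene and the mean of the other 9 of 0.92, 0.89 and 0.86. Plin4, Pnpla2, Fabp4 and Pparg came next, at 0.78, 0.77, 0.77 and 0.74. Lpl and Cidea followed less closely, at 0.55 and 0.49, and Adrb3 did not, at 0.06. These values describe 16 arrays that share treatments and slides and carry no p. Replicate 2 of db/db + estrogen on labelled day 7 was the highest of the 16 arrays for 8 of the 10 genes, the exceptions being Cidea and Adrb3. Replicate 1 of db/db + vehicle on labelled day 14 was the lowest for 5 genes, namely Pnpla2, Lipe, Plin1, Plin4 and Cidec.

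Lpl had the clearest treatment pattern of the genes of fatty acid entry. For Lpl the labelled day 7 level was 2.86 and 3.17 on the WT arrays, 4.11 and 4.39 on db/db, 5.98 and 6.21 on db/db + estrogen and 4.20 and 5.07 on db/db + vehicle. Lpl on labelled day 14 was 2.38 and 2.04 in WT, 4.05 and 3.43 in db/db, 4.32 and 4.49 with estrogen and 4.12 and 4.71 with vehicle. All 4 WT arrays were the lowest, and the 2 estrogen arrays of labelled day 7 were above every other array. In order of group mean on labelled day 7, WT (3.01 ± 0.22, SD, n = 2) was followed by db/db (4.25 ± 0.20), db/db + vehicle (4.63 ± 0.61) and db/db + estrogen (6.10 ± 0.16), and db/db and db/db + vehicle overlapped.

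Fabp4, the fatty acid carrier of fat cells, moved less. Its level on labelled day 7 was 6.27 and 5.90 in WT, 6.14 and 7.02 in db/db, 7.04 and 7.39 with estrogen and 6.49 and 6.62 with vehicle. Fabp4 on labelled day 14 was 5.56 and 5.70 in WT, 6.49 and 6.30 in db/db, 6.43 and 6.31 with estrogen and 5.84 and 6.73 with vehicle. The WT arrays of labelled day 14 lay below all the others, while on labelled day 7 WT and db/db overlapped.

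Among the lipolysis genes, Pnpla2 makes the first cut in stored triglyceride. For Pnpla2 the labelled day 7 level read 3.35 and 2.99 in WT, 3.58 and 4.21 in db/db, 3.99 and 4.75 with estrogen and 4.02 and 3.74 with vehicle. Pnpla2 on labelled day 14 read 2.95 and 2.78 in WT, 3.47 and 3.26 in db/db, 3.07 and 3.87 with estrogen and 2.62 and 3.66 with vehicle. WT lay below db/db on both labelled days without overlap, and the 3 db/db groups overlapped each other in every pair.

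Lipe, which splits the diglyceride that Pnpla2 leaves, was at −2.27 and −2.30 in WT on labelled day 7, at −2.63 and −1.57 in db/db, at −1.35 and −0.49 with estrogen and at −1.74 and −2.18 with vehicle. Lipe on labelled day 14 was at −2.17 and −2.89 in WT, −2.26 and −2.58 in db/db, −2.37 and −2.34 with estrogen and −3.14 and −1.71 with vehicle. The estrogen arrays of labelled day 7 were above those of the other 3 groups, and on labelled day 14 all groups overlapped.

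Adrb3, the receptor through which catecholamines start lipolysis in rodent fat, had the widest range of the 10 genes, 6.24 on the log2 scale. For Adrb3 the labelled day 7 level stood at −0.08 and 0.05 in WT, −4.52 and −4.09 in db/db, −2.54 and −2.21 with estrogen and −3.17 and −3.21 with vehicle. Adrb3 on labelled day 14 stood at −1.16 and −1.15 in WT, −4.57 and −6.19 in db/db, −4.24 and −3.80 with estrogen and −4.72 and −3.90 with vehicle. Each WT array was above each array of every db/db group. On labelled day 7 the order of the group means was WT (−0.01 ± 0.09, SD, n = 2), estrogen (−2.37 ± 0.23), vehicle (−3.19 ± 0.03) and db/db (−4.31 ± 0.30), with no overlap between neighbours, whereas on labelled day 14 vehicle (−4.31 ± 0.58) overlapped both estrogen (−4.02 ± 0.31) and db/db (−5.38 ± 1.15).

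The dimmer probe of Adrb3 gave the same order for WT but not for the treatments. It read −4.07 and −3.90 in WT on labelled day 7, −5.64 and −5.69 in db/db, −5.82 and −5.28 with estrogen and −6.01 and −5.81 with vehicle. The dimmer probe on labelled day 14 read −4.99 and −4.79 in WT, −5.50 and −6.36 in db/db, −6.32 and −6.11 with estrogen and −6.53 and −6.72 with vehicle. WT was highest on both labelled days, and no treated group was above db/db without overlap.

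**Figure D2:**
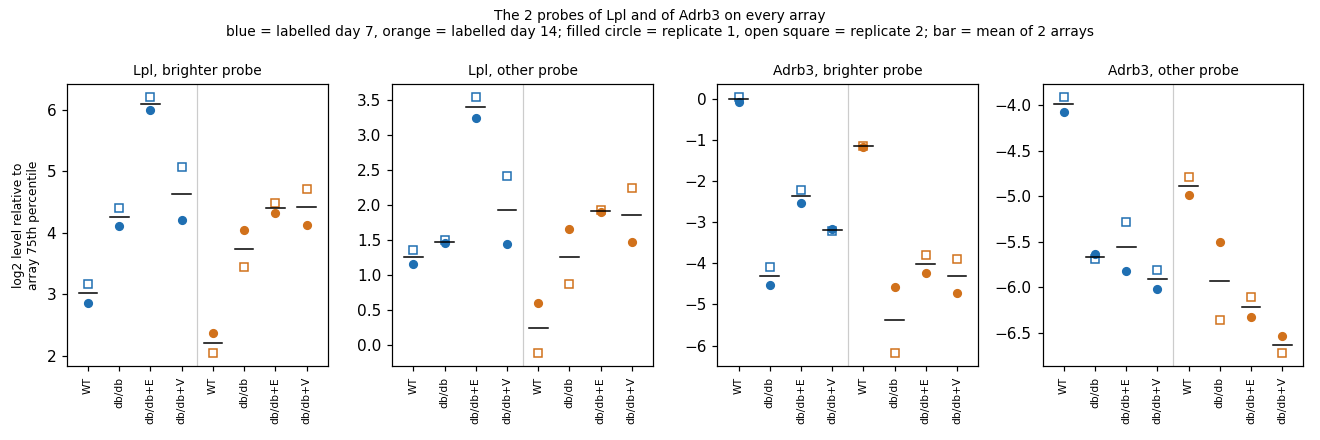
Log2 level (y axis) of the brighter and the other probe of Lpl and of Adrb3 on each of the 16 arrays, by group and labelled day (x axis); filled circles are replicate 1, open squares replicate 2 and bars the mean of the 2 arrays. Both Lpl probes are highest with estrogen on labelled day 7, while only the brighter Adrb3 probe lies higher with estrogen (−2.54 and −2.21) than in db/db (−4.52 and −4.09) on that day.

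Of the droplet coat genes, Plin1 encodes the perilipin that guards the droplet of fat cells and admits the lipases on stimulation. Its level on labelled day 7 was 0.32 and 0.47 in WT, −0.28 and 1.3 in db/db, 1.04 and 2.25 with estrogen and 0.91 and 0.75 with vehicle. Plin1 on labelled day 14 was 0.33 and −0.34 in WT, 0.38 and −0.58 in db/db, 0.08 and −0.73 with estrogen and −1.3 and 0.99 with vehicle. The db/db arrays of labelled day 7 spanned both WT arrays, and replicate 2 of db/db was above replicate 1 of estrogen.

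Plin4, a perilipin found on small droplets, was at 2.72 and 2.66 in WT on labelled day 7, at 3.20 and 3.89 in db/db, at 4.0 and 5.05 with estrogen and at 3.74 and 3.44 with vehicle. Plin4 on labelled day 14 was at 3.10 and 2.70 in WT, 3.57 and 2.94 in db/db, 2.61 and 3.61 with estrogen and 1.71 and 3.81 with vehicle. Only labelled day 7 separated WT from db/db and db/db from estrogen.

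Cidec enlarges droplets by moving lipid from one to another. It read 2.87 and 2.76 in WT on labelled day 7, 2.55 and 4.35 in db/db, 4.14 and 5.34 with estrogen and 3.52 and 3.81 with vehicle. Cidec on labelled day 14 read 2.97 and 2.10 in WT, 3.53 and 2.48 in db/db, 2.92 and 2.09 with estrogen and 1.38 and 4.0 with vehicle. The last pair, replicates of 1 group, lay farther apart than any group means of this gene.

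Cidea, a relative of Cidec known from brown fat and also found in sebaceous glands of mouse skin, had another pattern. It was at 3.67 and 3.32 in WT on labelled day 7, 1.96 and 2.70 in db/db, 3.76 and 3.80 with estrogen and 1.86 and 4.16 with vehicle. Cidea on labelled day 14 was at 2.60 and 2.18 in WT, 1.92 and 1.63 in db/db, 2.66 and 3.34 with estrogen and 3.43 and 3.66 with vehicle. The db/db arrays lay below WT and below estrogen on both labelled days, and on labelled day 14 vehicle was the highest group.

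Pparg, the regulator, read 1.97 and 1.2 in WT on labelled day 7, 1.07 and 1.48 in db/db, 1.77 and 2.17 with estrogen and 0.39 and 1.02 with vehicle. Pparg on labelled day 14 read 0.64 and 0.31 in WT, 1.17 and 0.65 in db/db, 0.59 and 0.80 with estrogen and 0.72 and 1.12 with vehicle. Vehicle was the lowest and estrogen, by its mean, the highest group on labelled day 7.

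**Figure D3:**
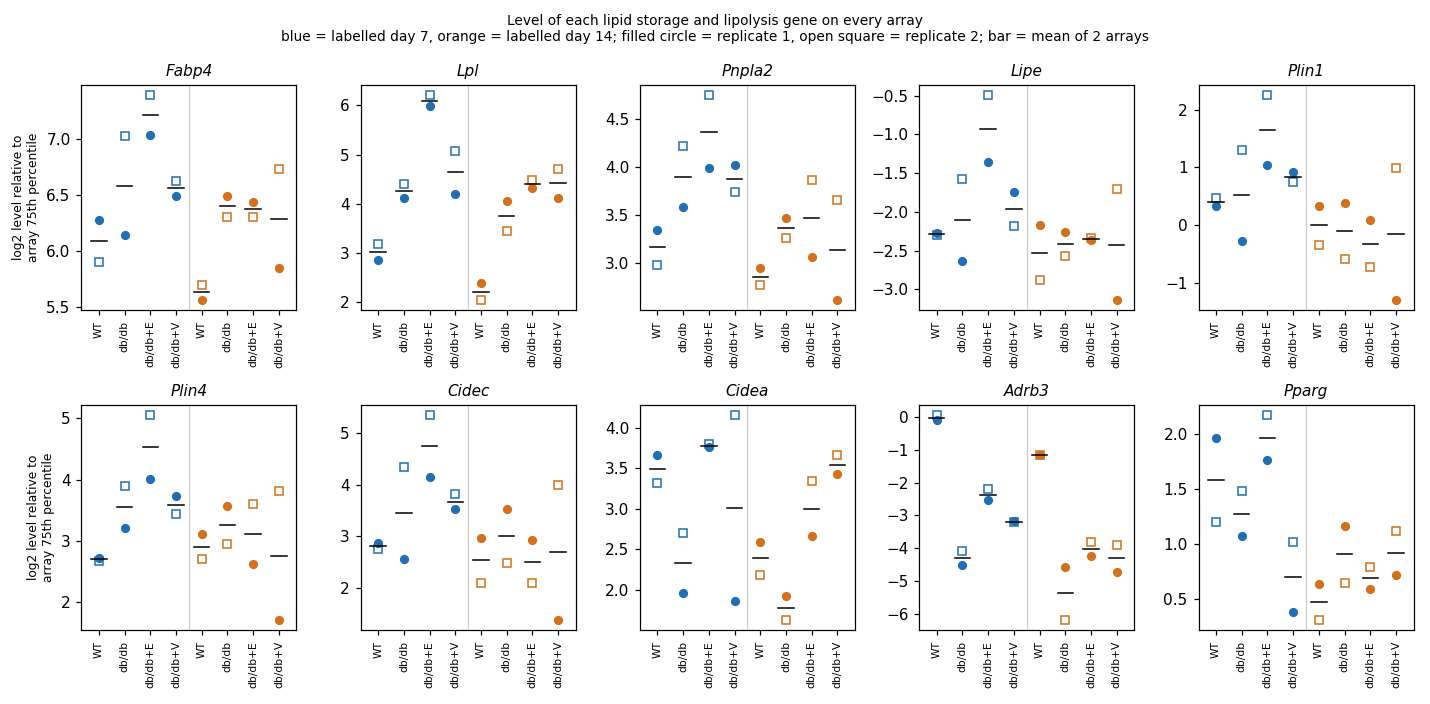
Log2 level of each of the 10 genes (y axis, a scale of its own in each panel) on the 16 arrays, by group and labelled day (x axis); filled circles are replicate 1, open squares replicate 2 and bars the mean of the 2 arrays of a group. Lpl is highest on the estrogen arrays of labelled day 7 (5.98 and 6.21), Adrb3 is highest in WT, and the open square and the filled circle of vehicle on labelled day 14 lie far apart for Plin1, Plin4 and Cidec.

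Since PPARγ and C/EBP factors are known to drive droplet genes in fat cells, the bases before some starts are shown. These are the starts of Plin1 and Plin4, the second start of Cidec and the third start of Pparg. The other windows were searched but are not printed. RefSeq windows were at hand for 6 of the 10 genes (Pnpla2, Lipe, Plin1, Plin4, Cidec and Pparg), with 10 windows in all, and the 250 bases before each start were searched on both strands for 4 motifs. TTGCNNAA, the core bound by C/EBP factors, was in 9.56% of all 32851 such windows of the table. It is in capitals below and lay in the windows of Plin1 (from 187 to 180 and from 58 to 51 bases before the start), of the second start of Cidec (198 to 191) and of the third start of Pparg (215 to 208 and 16 to 9). The windows of Plin4, Pnpla2 and Lipe, the first start of Cidec and the first and second starts of Pparg did not hold it. Every window with it is thus among those printed.
Plin1, chr7:79732777-79733026, minus strand, GRCm38.p6: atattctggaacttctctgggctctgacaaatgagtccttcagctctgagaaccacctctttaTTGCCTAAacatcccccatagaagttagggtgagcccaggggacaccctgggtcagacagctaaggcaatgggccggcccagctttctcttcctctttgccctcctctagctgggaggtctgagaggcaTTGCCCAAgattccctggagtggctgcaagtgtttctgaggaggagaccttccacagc
Cidec, the second start, chr6:113434765-113435014, minus strand, GRCm38.p6: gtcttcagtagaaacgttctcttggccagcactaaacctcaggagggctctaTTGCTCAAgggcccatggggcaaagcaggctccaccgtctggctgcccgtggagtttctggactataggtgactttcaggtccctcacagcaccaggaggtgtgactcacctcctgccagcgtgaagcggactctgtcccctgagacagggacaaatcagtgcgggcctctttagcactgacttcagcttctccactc
Plin4, chr17:56109783-56110032, minus strand, GRCm38.p6: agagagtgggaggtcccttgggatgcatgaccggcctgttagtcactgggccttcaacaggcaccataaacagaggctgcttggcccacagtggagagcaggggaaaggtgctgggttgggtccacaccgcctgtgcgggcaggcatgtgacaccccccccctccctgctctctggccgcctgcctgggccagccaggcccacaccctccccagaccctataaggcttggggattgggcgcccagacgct
Pparg, the third start, chr6:115421816-115422065, plus strand, GRCm38.p6: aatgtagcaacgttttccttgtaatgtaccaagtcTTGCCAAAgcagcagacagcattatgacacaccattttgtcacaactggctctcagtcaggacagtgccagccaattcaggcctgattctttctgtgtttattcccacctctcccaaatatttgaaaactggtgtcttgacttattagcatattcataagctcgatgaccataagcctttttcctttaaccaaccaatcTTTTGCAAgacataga
AGGTCA, the hexamer that many nuclear receptors bind, was in 14% of all windows and, among these genes, lay before the first start of Pparg (28 to 23) and before its second (9 to 4). The repeat of this hexamer that PPARγ binds with RXR (AGGTCANAGGTCA, which holds AGGTCA) was in 0.0335% of all windows, and the estrogen response element (GGTCANNNTGACC) in 0.0639%. Neither was found in the 10 windows of these genes. These are matches of letters in short windows and not measured binding.

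In db/db wounds without treatment, Lpl was higher than in WT and Adrb3 far lower, on both labelled days. Lpl was 2.36-fold higher on labelled day 7 (log2 difference 1.24 ± 0.32, SE, adjusted p = 0.033 from limma) and 2.89-fold higher on labelled day 14 (1.53 ± 0.32, adjusted p = 0.011). Adrb3 was 19.6-fold lower on labelled day 7 (log2 difference −4.29 ± 0.45, adjusted p = 0.00065 from limma) and 18.7-fold lower on labelled day 14 (−4.23 ± 0.45, adjusted p = 0.00052). The other 8 genes were not called on either day, although Cidea differed by −1.16 ± 0.59 (adjusted p = 0.22) on labelled day 7 and Fabp4 by 0.77 ± 0.33 (adjusted p = 0.13) on labelled day 14.

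So 1 of the 10 genes was called higher and 1 lower on each labelled day. Over all genes tested in that comparison, 6.27% were called higher and 7.85% lower on labelled day 7, and 2.75% and 9.93% on labelled day 14. Quantile normalization gave 7.645% and 6.621% on labelled day 7, and 4.43% and 5.37% on labelled day 14. Adjusted p in place of the fold change rule gave 7.76% and 6.01%, and 4.73% and 10.2%. The median log2 difference of the 10 genes was 0.34 on labelled day 7 and 0.39 on labelled day 14, beside −0.02 and −0.04 over all genes. Within slide 1 Lpl differed by 1.26 and Adrb3 by −4.44, and within slide 2 by 1.23 and −4.14. No slide held both groups of labelled day 14. With slide as a fixed block, which then compares db/db with WT through the treated groups, Lpl differed by 1.91 and Adrb3 by −3.60 on labelled day 14, and Fabp4 (1.15 in place of 0.77), Pnpla2 (1.42 in place of 0.50) and Plin4 (1.90 in place of 0.35) were called higher too.

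The dimmer probe of Adrb3 was also lower in db/db, by −1.67 ± 0.27 (adjusted p = 0.0051 from limma) on labelled day 7 and by −1.04 ± 0.27 (adjusted p = 0.026) on labelled day 14, smaller differences than those of the brighter probe. Both probes were dim in db/db. On replicate 2 of labelled day 14 they read −6.36 and −6.19, where the dimmest signal well above background on that array was −7.00. The part of this in the size of the differences was not tested. The other probe of Lpl differed by 0.21 ± 0.39 (adjusted p = 0.76) on labelled day 7, when it was not called, and by 1.02 ± 0.39 (adjusted p = 0.093) on labelled day 14. The mean of both Lpl probes was 0.73 higher on labelled day 7, which did not pass the threshold.

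With estrogen on labelled day 7, all 10 genes were higher than in untreated db/db wounds by their means, and 4 were called. Lpl was 3.58-fold higher (log2 difference 1.84 ± 0.32, SE, adjusted p = 0.011 from limma) and Adrb3 3.82-fold (1.93 ± 0.45, adjusted p = 0.036). Cidea was 2.73-fold higher (1.45 ± 0.59, adjusted p = 0.2) and Lipe 2.27-fold (1.18 ± 0.50, adjusted p = 0.22), and these 2 did not pass 0.05 after adjustment. Of the 6 genes not called, Cidec differed by 1.29 ± 0.85 (adjusted p = 0.46), Plin1 by 1.13 ± 0.76 (adjusted p = 0.47) and Plin4 by 0.98 ± 0.63 (adjusted p = 0.45), with the widest errors. Pparg, Fabp4 and Pnpla2 differed by 0.69 ± 0.33, 0.63 ± 0.33 and 0.47 ± 0.40, with adjusted p-values of 0.28, 0.33 and 0.59.

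The 4 of 10 genes called higher and 0 of 10 lower stand beside 5.56% called higher and 5.3% lower over all genes in this comparison. Their median log2 difference was 1.16, beside 0.04 over all genes. Within slide 1 and within slide 2 the estrogen array was above the db/db array for 10 of 10 genes, with Lpl higher by 1.87 and 1.81, Adrb3 by 1.98 and 1.89, Cidea by 1.80 and 1.1, and Lipe by 1.28 and 1.08. The other probe of Lpl was higher by 1.92 ± 0.39 (adjusted p = 0.021 from limma), and the other probe of Cidec was called, by 1.87 ± 0.74 (adjusted p = 0.19). The dimmer probe of Adrb3 was not, at 0.11 ± 0.27 (adjusted p = 0.87). The calls of Lipe and Cidea were lost without replicate 1 of db/db (0.65 and 1.08) or without replicate 2 of estrogen (0.75 and 1.43), and that of Cidea also without replicate 1 of estrogen (1.47).

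On labelled day 14 the 10 genes did not move as a body with estrogen: 5 were above and 5 below untreated db/db by their means, with a median log2 difference of 0.02 beside 0.04 over all genes. Adrb3 alone was called, 2.57-fold higher (1.36 ± 0.45, adjusted p = 0.38 from limma), while 2.34% of all genes were called higher and 1.67% lower. This call was lost without replicate 2 of db/db (0.55) or replicate 2 of estrogen (1.14), and the dimmer probe gave −0.29 ± 0.27 (adjusted p = 0.86). Within slide 3, the only one with both groups, Adrb3 differed by 1.14. With slide as a fixed block, Adrb3 differed by 1.05 and was not called. In that fit Lpl, Cidea and Adrb3 lay above db/db and the other genes below, and Pnpla2 turned from 0.10 to −0.35. Cidea differed by 1.23 ± 0.59 (adjusted p = 0.6) and Lpl by 0.67 ± 0.32 (adjusted p = 0.61), and neither was called. With normexp, or with only the 4 arrays compared in the fit, Cidea was called (1.22 and 1.23) and Adrb3 was not (0.72 and 1.36).

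The oil alone was compared with the same db/db arrays, so its values share the untreated side with those above. On labelled day 7 it had 1 gene called higher, Adrb3, by 1.12 ± 0.45 (2.17-fold, adjusted p = 0.32 from limma), and 0 lower, beside 3.08% of all genes higher and 2.42% lower. Lpl differed by 0.38 ± 0.32 (adjusted p = 0.64), Cidea by 0.68 ± 0.59 (adjusted p = 0.65) and Pparg by −0.57 ± 0.33 (adjusted p = 0.47). The median of the 10 genes was 0.18, beside 0.01 over all genes. Adrb3 differed by 1.35 within slide 1 and 0.88 within slide 2, the dimmer probe by −0.25 ± 0.27, and the call was lost without replicate 1 of db/db (0.91) or without replicate 1 or 2 of vehicle (1.1 and 1.14). Without replicate 1 of vehicle, Cidea was called instead, at 1.83.

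With vehicle on labelled day 14, 2 of the 10 genes were called higher and 0 lower, beside 5.18% and 2.72% of all genes. Cidea was 3.41-fold higher (1.77 ± 0.59, adjusted p = 0.18 from limma) and Adrb3 2.1-fold (1.07 ± 0.45, adjusted p = 0.26). The median of the 10 genes was −0.03, beside 0.03 over all genes. Both calls were lost without replicate 2 of db/db (1.63 for Cidea, 0.26 for Adrb3) or replicate 2 of vehicle (1.66 and 0.66), and without the latter array Plin4 was called lower (−1.55). With slide as a fixed block, Adrb3 (0.75) was not called, Cidea was, and Plin4 was called lower (−1.27). The replicate block also lost the call of Adrb3, at an unchanged difference of 1.07. The dimmer probe of Adrb3 differed by −0.70 ± 0.27 (adjusted p = 0.23). Without replicate 1 of vehicle, Plin1 differed by 1.09 in place of −0.05 and Cidec by 0.99 in place of −0.32, neither of them called.

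Estrogen set against its own vehicle is the comparison in which the oil is on both sides, and it uses the estrogen and vehicle arrays already described. On labelled day 7, Lpl was 2.75-fold higher with estrogen (log2 difference 1.46 ± 0.32, adjusted p = 0.044 from limma) and Pparg 2.4-fold (1.26 ± 0.33, adjusted p = 0.066). The 10 genes were all higher by their means, with a median of 0.88 beside 0.03 over all genes, and 2 of 10 were called higher and 0 lower where 4.92% of all genes were called higher and 4.57% lower. Lipe at 1.04 ± 0.50 (adjusted p = 0.27), Cidec at 1.07 ± 0.85 (adjusted p = 0.51) and Adrb3 at 0.82 ± 0.45 (adjusted p = 0.34) were not called.

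Within slide 1 Lpl differed by 1.78 and Pparg by 1.38, and within slide 2 by 1.14 for both, and the estrogen array was above the vehicle array for 9 of 10 genes within each slide. The other probe of Lpl gave 1.46 ± 0.39 (adjusted p = 0.071 from limma) and that of Cidec 1.93 ± 0.74 (adjusted p = 0.18), both called. Without replicate 1 of vehicle Pparg differed by 0.94 and was under 2-fold, and the difference of Cidea turned from 0.77 to −0.38, where the 2 vehicle arrays held 1.86 and 4.16 for that gene. Without replicate 2 of vehicle Cidea was called, at 1.92. On labelled day 14, limma called 0 of the 10 genes, and 0 had an unadjusted p below 0.05, while 0.569% of all genes were called higher and 0.467% lower. The differences ran from −0.54 ± 0.59 for Cidea (adjusted p = 0.9) to 0.35 ± 0.63 for Plin4 (adjusted p = 0.94), with a median of 0.03. Without replicate 2 of vehicle, Plin4 differed by 1.40 and was called. Within slide 3 estrogen was above vehicle for 8 of 10 genes and within slide 4 for 2 of 10.

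**Figure D4:**
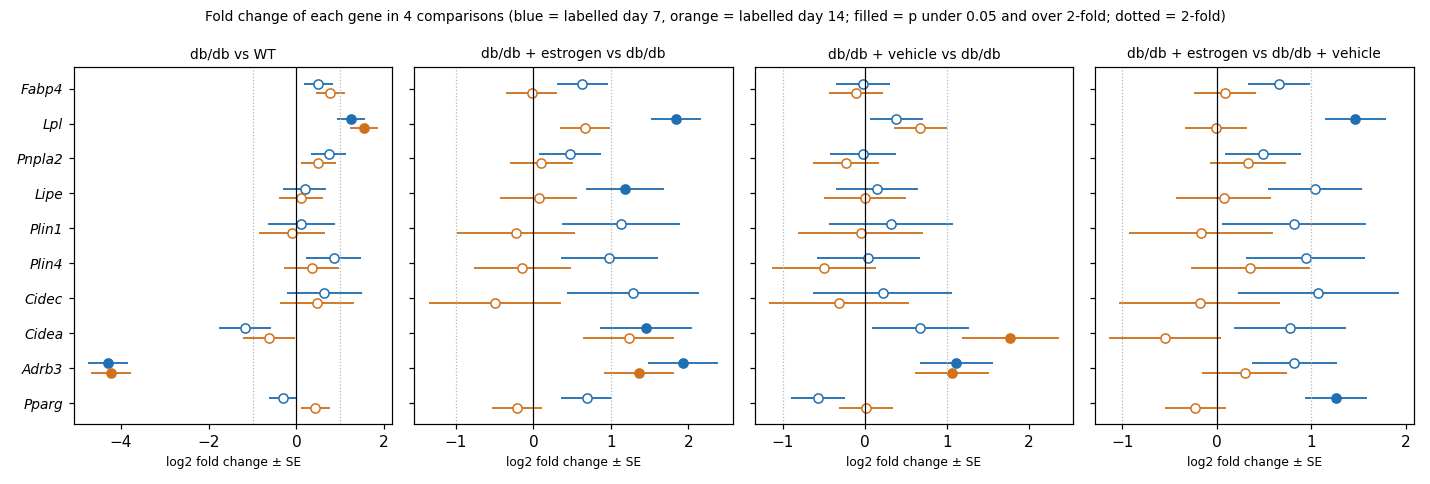
Log2 fold change of each gene (x axis, with SE from limma; y axis, gene) in 4 comparisons, in blue for labelled day 7 and orange for labelled day 14; filled points had an unadjusted p below 0.05 and over 2-fold change, and dotted lines mark 2-fold. On labelled day 7 every estrogen point lies right of 0, against db/db (median 1.16) and against vehicle (median 0.88), and on labelled day 14 the points lie on both sides.

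Whether a comparison differed between the labelled days was tested as a difference of differences in the same model. For estrogen against vehicle, Lpl differed by −1.47 ± 0.46 (adjusted p = 0.28 from limma) and Pparg by −1.49 ± 0.46 (adjusted p = 0.28), that is, less on labelled day 14, and all 10 genes had a negative value, with a median of −0.98 beside −0.02 over all genes. That was 2 of 10 called lower and 0 higher, where 3.85% of all genes were called lower and 3.03% higher. Leaving out replicate 1 of vehicle on labelled day 14, the array on which 5 of the genes were lowest, left replicate 2 alone in that group. Replicate 2 was higher for 10 of 10 genes, so every value then falls by construction. Cidec moved from −1.26 to −2.57 and Plin1 from −0.99 to −2.13. For estrogen against db/db, Lpl was called, at −1.18 ± 0.46 (adjusted p = 0.42), with 10 of 10 values negative, a median of −1.01, and 2.69% of all genes called lower and 3.96% higher. Neither db/db vs WT (1.34% of all genes higher, 4.8% lower) nor vehicle against db/db (1.84% higher, 0.505% lower) had a called gene among the 10 by limma, and 0 had an unadjusted p below 0.05. Markers of other cells also differed between the labelled days in the same tests. For estrogen against db/db, 6 of 6 neutrophil markers were called higher (median 6.18), 4 of 7 inner root sheath markers of the hair follicle lower (median −3.68), 1 of 8 white adipocyte markers lower, and 1 of 5 macrophage and 1 of 4 brown adipocyte markers higher. For estrogen against vehicle, 3 of 6 neutrophil markers were higher (median 3.90) and 1 of 5 macrophage markers, while 2 of 9 sebocyte, 1 of 8 white adipocyte and 1 of 6 fibroblast markers were lower. Their part in the values of the 10 genes was not tested.

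A wider list of 52 genes of fat storage, uptake, synthesis and lipolysis that are not among the 10 was counted in the same way. In db/db against WT, 9 of 52 were called higher and 1 lower on labelled day 7, beside 6.27% and 7.85% of all genes, and 8 and 0 on labelled day 14, beside 2.75% and 9.93%. The medians of the list were 0.19 and 0.41. Fatty acid uptake had 3 of 8 higher and then 4 of 8, droplet coat and assembly 2 of 10 on each day, lipolysis and its control 3 of 14 higher and 1 lower and then 2 of 14 higher, adipogenic regulators 1 of 12 and 0 of 12, and triglyceride synthesis 0 of 8.

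Angptl4, an inhibitor of lipoprotein lipase, was 4.03-fold higher in db/db than WT on labelled day 7 (log2 level 4.82 against 2.81, adjusted p = 0.00091 from limma). Npr3, which clears natriuretic peptides, was 5.34-fold higher on labelled day 7 (−0.73 against −3.15, adjusted p = 0.075) and 4.69-fold on labelled day 14 (−1.35 against −3.58, adjusted p = 0.078). Npr1, the natriuretic peptide receptor that stimulates lipolysis in human fat, was 3.06-fold higher on labelled day 7 (−4.72 against −6.34, adjusted p = 0.081) and was well above background on 1 of the 2 WT arrays. Hilpda, an inhibitor of adipose triglyceride lipase, and Plin2, the coat protein of droplets outside fat cells too, were 3.15-fold (3.24 against 1.58, adjusted p = 0.0074) and 3.07-fold (5.21 against 3.60, adjusted p = 0.023) higher on labelled day 14. Hcar1, a lactate receptor that restrains lipolysis, was at least 2.51-fold lower on labelled day 7 (adjusted p = 0.16), and neither db/db array had it well above background.

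With estrogen against db/db on labelled day 7, 6 of 51 genes of this list were called higher and 3 lower, beside 5.56% and 5.3% of all genes, with a median of 0.47. Gpam, which starts triglyceride synthesis, was 3.93-fold higher (log2 level −2.76 against −4.73, adjusted p = 0.0033 from limma), Cav1, the caveolin of fat cell and endothelial membranes, 2.48-fold (−0.24 against −1.55, adjusted p = 0.012) and Pnpla3, a lipase-like droplet protein, 3.15-fold (1.02 against −0.64, adjusted p = 0.2). Fabp5, the fatty acid carrier of epidermis, was 2.41-fold lower (6.49 against 7.76, adjusted p = 0.0038), Hilpda 2.73-fold lower (1.75 against 3.20, adjusted p = 0.027) and Hcar2, the niacin receptor, which restrains lipolysis, 2.48-fold lower (−0.03 against 1.28, adjusted p = 0.15).

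Against vehicle on labelled day 7, 3 of 51 were higher and 3 lower, shares near the 4.92% and 4.57% of all genes, with a median of 0.47. Gpam (2.74-fold, adjusted p = 0.021 from limma), Agpat2, which acts after it in triglyceride synthesis (2.23-fold, adjusted p = 0.1), and Zfp423, a factor of fat cell commitment (2.08-fold, adjusted p = 0.063), were higher with estrogen. Hilpda (2.67-fold, adjusted p = 0.044), Fabp5 (2.5-fold, adjusted p = 0.0067) and Hcar2 (2.42-fold, adjusted p = 0.17) were lower. On labelled day 14 limma called 0 of 51 against vehicle, where 1, Cav1, had an unadjusted p below 0.05, and 1 of 51 against db/db, Mogat2, a monoacylglycerol acyltransferase, which was 3.73-fold lower (−3.54 against −1.64, adjusted p = 0.24).

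Vehicle against db/db called 1 of 51 lower on labelled day 7, a share no larger than the 2.42% of all genes, with a median of −0.02. It was the sterol receptor Nr1h3, 2.09-fold lower (1.69 against 2.76, adjusted p = 0.21 from limma). The same comparison on labelled day 14 called 1 of 51 higher and 2 lower, beside 5.18% and 2.72% of all genes, with a median of 0.02. They were Mgll, the last lipase of triglyceride breakdown, which was higher (2.09-fold, 4.61 against 3.55, adjusted p = 0.27), and Ppargc1a, a coactivator of mitochondrial genes, which was lower (3.81-fold, −3.94 against −2.01, adjusted p = 0.22), as was Mogat2 (2.39-fold, −2.90 against −1.64, adjusted p = 0.23).

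Apart from the 10 themselves, 10 genes had the pattern most like the mean of the 10 over the 16 arrays, among 15313 genes well above background on all of them. They were Cib2 (Pearson r 0.95), Ifi27 (0.95), Mc2r (0.92), Pcx (0.92), Abhd15 (0.91), Ephx2 (0.91), Prxl2a (0.90), Chpt1 (0.90) and Mfsd8 (0.90), and Acsl1 (0.91), an acyl-CoA synthetase, which the wider list also holds. The values describe likeness over these arrays and carry no p.

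The tissue was checked against markers of the cell types that such wounds can hold. All 8 white adipocyte markers were well above background on all 16 arrays. Summed on the linear scale, in units of the 75th percentile of the array, the white adipocyte list stood at 118 and 115 on the WT arrays of labelled day 7, 18 and 23.2 in db/db, 24.2 and 50.05 with estrogen and 33.3 and 22.0 with vehicle. The list on labelled day 14 stood at 87.6 and 70.8 in WT, 27.2 and 14.1 in db/db, 10.1 and 29.9 with estrogen and 8.35 and 29.6 with vehicle. Its brightest gene was Cfd (adipsin), a secreted protease of fat cells, which was lower in db/db than WT by 4.42 ± 0.92 on the log2 scale (adjusted p = 0.014 from limma) on labelled day 7 and by 3.76 ± 0.92 (adjusted p = 0.02) on labelled day 14.

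By their means, 7 of the 8 white adipocyte markers were lower in db/db than WT on labelled day 7 (median log2 difference −0.56) and 5 of 8 on labelled day 14 (median −0.62), and limma called Cfd alone lower on labelled day 7 and Cfd and Retn (resistin, by −2.72 ± 1.18, adjusted p = 0.13) on labelled day 14. Adiponectin (Adipoq) was at 2.59 and 2.59 in WT and 1.39 and 2.35 in db/db on labelled day 7, and the difference of −0.72 ± 0.81 (adjusted p = 0.6 from limma) was not called. Lep, the fat cell hormone whose receptor is mutated in db/db mice, was higher in db/db by 3.0 ± 0.87 (adjusted p = 0.05 from limma) on labelled day 7 and by 2.29 ± 0.87 (adjusted p = 0.093) on labelled day 14, both called at the unadjusted threshold. With estrogen against db/db on labelled day 7, 2 of 8 markers were called higher, Adig by 1.59 and Aoc3 by 1.02, while Adipoq differed by 1.02 ± 0.81 (adjusted p = 0.56) and was not called.

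Markers of several other cell types moved in the comparisons in which the lipid genes did. The sebocyte list, whose brightest gene was Krt79, had 5 of 9 tested genes lower in db/db than WT on labelled day 7, 4 of 9 higher with estrogen on that day and 7 of 9 higher with vehicle on labelled day 14, where Cidea was called. Its sum was 35.9 and 67.9 in db/db, 110 and 80.1 with estrogen and 43.5 and 144 with vehicle on labelled day 7, and 28.1 and 20.0, 57.8 and 35.8, and 77.5 and 115 on labelled day 14. Between the 2 arrays of a group, the one with the higher sebocyte sum also had the higher Cidea level in the WT, db/db and vehicle groups of both labelled days, and the lower Cidea level in the estrogen groups of both. The part of sebaceous glands in the Cidea values was not tested.

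Inner root sheath markers of the hair follicle had 5 of 7 genes lower in db/db than WT on labelled day 7 and 6 of 7 higher with estrogen against db/db on that day, among them Krt27 by 4.46 and Krt28 by 5.04, and their sum was 0.448 and 0.674 in db/db, 10.3 and 13.7 with estrogen, 1.14 and 3.98 with vehicle and 1.84 and 33.9 in WT. Neutrophil markers had 4 of 6 called higher in db/db than WT on labelled day 7 (Ltf by 8.13, Camp by 7.08, Retnlg, which 1 of the 2 WT arrays had well above background, by 9.68, and Ngp, which neither had) and 3 of 6 on labelled day 14, while S100a8 and S100a9, which make up most of the sum, were not called. All 6 were lower with estrogen against db/db on labelled day 7, S100a9, the brightest, with a log2 difference of −4.65, with sums of 393 and 445 in db/db, 6.09 and 25.0 with estrogen, 426 and 403 with vehicle and 305 and 296 in WT. With vehicle against db/db, 3 of 6 neutrophil markers were called lower on labelled day 7 (median log2 difference −4.55) and 3 of 6 on labelled day 14, when estrogen had 2 of 6 lower. For vehicle against db/db on labelled day 7, inner root sheath markers had 3 of 7 higher, sebocyte markers 1 of 9 higher and macrophage markers 1 of 5 lower. On labelled day 14 white adipocyte markers had 1 of 8 higher in that comparison. Estrogen against vehicle on labelled day 7, the comparison in which Lpl and Pparg were called, had 4 of 6 neutrophil markers lower (median −3.71), 3 of 7 inner root sheath markers higher (median 2.14), 2 of 9 sebocyte and 1 of 8 white adipocyte markers higher and 1 of 5 macrophage markers lower. Macrophage markers had 4 of 5 higher in db/db than WT on labelled day 7 and 2 of 5 on labelled day 14, and with estrogen against db/db 2 of 5 lower and then 1 of 5 lower. Sebocyte markers had 2 of 10 lower in db/db than WT and 2 of 9 higher with estrogen against db/db on labelled day 14. Keratinocyte markers had 1 of 6 higher with estrogen on labelled day 7 and 1 of 6 with vehicle on labelled day 14, beside 5.56% and 5.18% of all genes. Brown adipocyte markers had Ucp1, which neither WT array had well above background, higher and Elovl3 lower in db/db than WT on labelled day 7 and Dio2 lower on labelled day 14. On that labelled day Dio2 and Elovl3, 2 of the 3 tested, were called higher with estrogen against db/db, by 1.62 and 1.66, and Elovl3, which the sebocyte list also holds, with vehicle, by 2.73. Fibroblast markers had 1 of 6 higher in db/db than WT on labelled day 7, Pdgfra, and endothelial markers 1 of 6 lower with vehicle on labelled day 14, Tie1. In db/db against WT, 0 of 6 endothelial markers were above WT by their means on labelled day 7 (median −0.38) and 5 of 6 on labelled day 14 (median 0.40), and none was called. Of the 6 skeletal muscle markers limma called 0 in each of the 8 comparisons, and 0 had an unadjusted p below 0.05. Their medians were nevertheless as far from 0 as −1.96, with vehicle against db/db on labelled day 14, and their sums differed between arrays of 1 group, from 45.5 to 462 with estrogen on labelled day 14 and from 67.8 to 312 with vehicle on labelled day 7. The part of other cell types in the levels of the 10 genes was not tested.

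**Figure D5:**
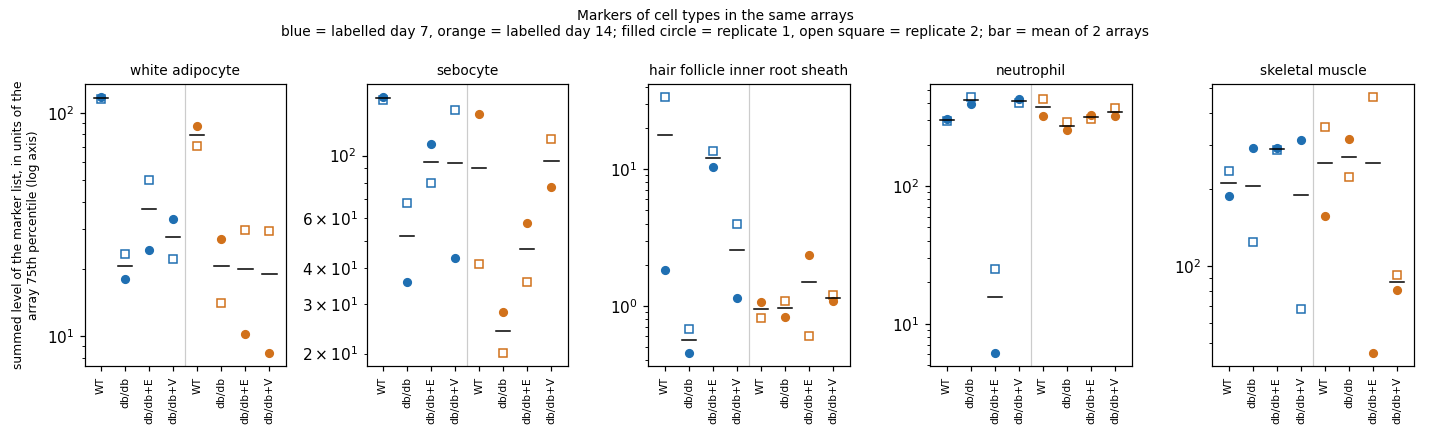
Summed level of 5 marker lists (y axis, log scale, in units of the 75th percentile of the array) on each array, by group and labelled day (x axis); filled circles are replicate 1, open squares replicate 2 and bars the mean of the 2 arrays. White adipocyte markers, led by Cfd, are highest in WT (118 and 115 on labelled day 7), sebocyte markers are lowest in db/db on labelled day 14, and neutrophil markers are lowest with estrogen on labelled day 7 (6.09 and 25.0).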

How the data were processed

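RNA from wounds was read on 1-colour Agilent mouse arrays, 16 in all. Each mouse was wounded on both sides of the back, and the sample labels do not say which mouse an array came from. The authors deposited, per the file headers, a processed signal intensity of each spot from Agilent Feature Extraction 11.0.1.1 (version per the submitters' processing notes) (background subtracted, spatial trend removed, not scaled between arrays) and raw median pixel intensities for spots and local background. They also deposited a table of values that equalled a ratio, the processed signal divided by the 75th percentile of its array, to within 0.1% for at least 99.36% of its 34643 probes. It was used as an alternative.

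Outlier spots and controls were left out, spots of a probe were averaged, and log2 minus that of the array's 75th percentile was taken. RefSeq accessions named 27427 probes (69.6%). A probe entered a test if at least 1 of the groups compared had it well above background on both its arrays, and a gene was read by its brightest probe. The test was limma 3.58.1 in R 4.3.3 on 8 groups, checked on simulated data. Alternatives were normexp (offset 50), quantile normalization, other filters and a floor on dim signals, the deposited table, a fit of the compared arrays alone, a fixed or random slide block (statmod 1.5.0), a replicate block, adjusted p, the mean of all probes, and each array left out. The 10 genes, the wider list of 52 and the marker lists were chosen with earlier results of these data known. Of the wider list, the genes named were the 3 of largest fold change per comparison and direction among those called without overlap between groups, and the genes of most alike pattern were the 10 of highest Pearson r with the mean of the 10. The other marker genes given by value (Adipoq, Lep, Adig, Aoc3, Krt27, Krt28, Retn, the neutrophil and brown adipocyte genes, Pdgfra and Tie1) were chosen after their values were seen. The probes were designed on another genome build than GRCm38.p6, that of the RefSeq promoter windows, so no probe positions are given.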

Additional observations from a re-analysis of the deposited data

Results flagged for a closer look

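Of the differences between the labelled days, 3 passed the thresholds in limma among the 10 genes. Lpl with estrogen against vehicle differed by −1.471 on the log2 scale between labelled day 14 and labelled day 7 (adjusted p = 0.28), from 1.46 on labelled day 7 to −0.01 on labelled day 14. Pparg in the same comparison differed by −1.487 (adjusted p = 0.28), from 1.26 to −0.23. Lpl with estrogen against untreated db/db differed by −1.175 (adjusted p = 0.42), from 1.84 to 0.67, and this one was no longer called without replicate 1 of db/db (−1.04) or replicate 2 of estrogen (−1.06) on labelled day 7, or without replicate 1 of db/db (−0.87) or replicate 1 of estrogen (−1.09) on labelled day 14. None of the 3 passed 0.05 after adjustment over all probes tested. All arrays of a labelled day were scanned together, and the labelled days may be exchanged, so the sign of these differences in time rests on the labels. Endothelial markers in db/db against WT had a median log2 difference of −0.38 on labelled day 7 and 0.40 on labelled day 14, with none called. By label, that is the order in which new blood vessels ran in the study's tissue sections. Which of the 2, labels or printed days, is exchanged was not tested. In the same tests, 6 of 6 neutrophil markers were called higher and 4 of 7 inner root sheath markers lower for estrogen against db/db, and 3 of 6 neutrophil markers higher and 2 of 9 sebocyte markers lower for estrogen against vehicle, with 1 of 8 white adipocyte markers lower in each. Their part in the 3 values was not tested.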

How the results depend on the processing

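The 2 arrays per group limit every result, since the calls rest on a pooled spread. Arrays of a group differed by up to 2.62 on the log2 scale for 1 gene. No spot was saturated, and all 13 probes of the 10 genes were well above background on all arrays.

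The 17 called values, of which 3 are differences between the labelled days, were recomputed in 284 alternatives: 239 kept direction and call, 45 kept direction without the call and 0 turned. Some alternatives could hardly change a call, so these counts overstate the test. The brightest probe of each gene was well above background on all 16 arrays, so the other filters and the floor on dim signals left its levels as they were. The deposited table nearly equalled the main values, and the mean of all probes left genes with 1 probe unchanged. Of 1796 alternatives of values not called, 26 were called and 0 turned with a call. The calls of Adrb3 in db/db vs WT on both labelled days, Lpl in db/db vs WT on labelled day 14, Lpl and Adrb3 with estrogen against db/db on labelled day 7 and Lpl with estrogen against vehicle on labelled day 7 were kept in 16 of 16 alternatives each. Quantile normalization moved the median log2 difference of all genes in db/db vs WT on labelled day 14 from −0.04 to 0.09, and the share of its calls that were higher from 21.7% (471 higher, 1698 lower) to 45.2% (758 and 919). It also moved that share for the day differences of db/db vs WT from 21.8% to 36.9% and of vehicle against db/db from 78.5% to 65.9%.

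With p adjusted over all probes tested in place of the fold change rule, the number of the 10 genes called fell from 4 to 2 for estrogen against db/db on labelled day 7, from 1 to 0 on labelled day 14, from 1 to 0 and from 2 to 0 for vehicle against db/db on labelled days 7 and 14, from 2 to 1 for estrogen against vehicle on labelled day 7, and from 1 to 0 and 2 to 0 for the differences between labelled days of estrogen against db/db and against vehicle. Over all genes the same change took the calls from 1858 to 1167, 659 to 20, 932 to 30, 1322 to 35 and 1620 to 603 in the first 5 of these comparisons, from 173 to 0 for estrogen against vehicle on labelled day 14, and from 1067 to 47, 1145 to 22, 404 to 0 and 1190 to 2 for the differences between labelled days (db/db vs WT, estrogen and vehicle against db/db, estrogen against vehicle). Normexp took those of db/db vs WT on labelled day 14 from 2169 to 1193, of estrogen against db/db on labelled day 14 from 659 to 411, of estrogen against vehicle on labelled day 14 from 173 to 90, and of the differences between labelled days from 1067 to 550 (db/db vs WT) and 404 to 221 (vehicle against db/db). Without the filter, 323 genes were called for estrogen against vehicle on labelled day 14, and 115 with all arrays above background, which also gave 227 for the day difference of vehicle against db/db, where slide as a fixed block gave 647.

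With the mean of all probes of a gene, 1 of the 10 genes was called in db/db vs WT on labelled day 7, 0 for estrogen against db/db on labelled day 14, and 0 and 1 for vehicle against db/db on labelled days 7 and 14. Slide as a fixed block called 5 in db/db vs WT on labelled day 14 (adding Fabp4, Pnpla2 and Plin4, at 1.15, 1.42 and 1.90), 0 for estrogen against db/db on labelled day 14 and 2 for its day difference. In vehicle against db/db on labelled day 14 it replaced the call of Adrb3 (0.75) by one of Plin4, lower by −1.27. For estrogen against db/db on labelled day 14, normexp and the fit of only the arrays compared kept the count at 1 with Cidea in place of Adrb3. Vehicle against db/db had 0 called on labelled day 7 and 1 on labelled day 14 with normexp, and 1 on labelled day 14 with quantile normalization or only the arrays compared. The replicate block gave 0 and 1 for vehicle against db/db on labelled days 7 and 14, and it changed no other count by over 1.5 times. Deviations of arrays with the same replicate number correlated between −0.31 and 0.39 on labelled day 7 and between −0.45 and 0.32 on labelled day 14, so the numbers were not taken as pairs, and the block also took estrogen against db/db on labelled day 7 from 4 to 3, where Lipe was lost. The cause of these changes was not tested.

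Leaving out each array in turn gave counts of 2 to 5 for estrogen against db/db on labelled day 7 and 0 to 1 on labelled day 14, 0 to 1 and 0 to 2 for vehicle against db/db, and 1 to 3 and 0 to 1 for estrogen against vehicle. For the differences between labelled days it gave 0 to 1 for db/db vs WT (1 without replicate 2 of WT on labelled day 7), 0 to 3 for estrogen against db/db (3 without replicate 2 of db/db on labelled day 14), 0 to 1 for vehicle against db/db (1 without replicate 2 of vehicle on either labelled day) and 2 to 7 for estrogen against vehicle (7 without replicate 1 of vehicle on labelled day 14). Over all genes, leaving out an array gave 189 to 1265 calls for estrogen against vehicle and 580 to 1411 for estrogen against db/db on labelled day 14, 608 to 1558 and 866 to 1269 for vehicle against db/db on labelled days 7 and 14, and 845 to 1634 and 891 to 1952 for the day differences of db/db vs WT and of estrogen against db/db. For the day difference of estrogen against vehicle it gave 1024 to 1466.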
